A study of Homo sapiens with 2 samples.

Results

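The genes described here are 10 regulators of the passage from G1 into S phase: the D-type cyclin genes CCND1, CCND2 and CCND3, the E-type cyclin genes CCNE1 and CCNE2, the kinase genes CDK2, CDK4 and CDK6, the kinase inhibitor gene CDKN1B and the retinoblastoma gene RB1. They were taken by symbol from a deposited expression table of 25593 rows, each matched exactly 1 row, and they are 10 of 25436 gene symbols analysed. Polyadenylated RNA had been sequenced from HuES53 and HuES64, a pair of lines of human embryonic stem cells. Both are diploid lines from embryos made by in vitro fertilization, both were undifferentiated and below passage 20, and both serve as controls in a study of haploid human embryonic stem cells. No treatment and no genetic change is labelled for either line. Each line is represented by 1 library, so there is no replicate error and no test. A difference between lines, donors, cultures and libraries cannot be told apart.

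D-type cyclins bind CDK4 and CDK6, and these complexes begin to phosphorylate RB1, the pocket protein that holds E2F transcription factors in check. E-type cyclins then bind CDK2, which phosphorylates RB1 further as DNA replication begins, while CDKN1B encodes p27, an inhibitor that binds cyclin and CDK complexes. Human embryonic stem cells are known for a short G1 phase.

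All 10 genes were expressed in both libraries, and none differed by 1.5-fold between them. Levels are given as FPKM, fragments scaled by transcript length and by library size, so they can be compared between genes. Differences are given on the log2(FPKM + 1) scale as the HuES53 value minus the HuES64 value, and the printed folds come from that scale, which understates the change of low genes. Where a pair of levels is given without names, HuES53 comes first. Among the 13790 genes averaging at least 1 FPKM over the libraries, 17.1% differed by at least 1.5-fold in either direction, 9.22% being higher in HuES53 and 7.84% higher in HuES64. All 10 genes passed that filter, and the count past 1.5-fold was 0 of 10. With TPM scaling, which divides by the FPKM sum of each library, CDK6 and RB1 passed 1.5-fold, while among all genes 3175 were then higher in HuES53 by that size and 533 in HuES64, against 1271 and 1081 with the deposited values. At 2-fold, with the deposited values, it was also 0 of 10, against 3.86% of all genes (2.15% higher in HuES53 and 1.7% in HuES64). Within these limits 7 of the 10 were higher in HuES53 and 3 in HuES64, against 52.5% and 47.5% of all genes. Their median difference was 0.17, and that of all genes was 0.03.

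Both libraries carried the markers of the labelled cell type. The pluripotency markers POU5F1, NANOG, SOX2, LIN28A, DNMT3B and TDGF1 summed to 2936 FPKM in HuES53 and 2939 in HuES64, all 6 being above 1 FPKM. Of 5 neuroectoderm markers, 1 reached 1 FPKM in HuES53 (PAX6, at 1.19) and 0 in HuES64, with NEUROG1 listed at 0 in both. In each library 1 FPKM was reached by 5 of 5 endoderm, 3 of 5 mesoderm, 3 of 5 trophoblast and 4 of 6 fibroblast markers. Summed endoderm markers stood at 47.3 and 35.7 FPKM, mesoderm markers at 11.6 and 9.29, trophoblast markers at 12.7 and 9.50, and fibroblast markers at 211 and 227, mostly COL1A1 and COL1A2. Single markers differed more than these sums: AFP, an endoderm gene, was at 7.25 and 1.53 FPKM, MIXL1 of mesoderm at 6.84 and 2.52, CGA of trophoblast at 2.90 and listed at 0, and COL3A1 of fibroblasts at 3.08 and 8.00. Within each of these lists other markers went the other way. SOX17 of endoderm was at 6.89 and 10.6 FPKM, TBX6 of mesoderm at 2.37 and 3.99, HLA-G of trophoblast at 0.854 and 1.99, and COL1A2 at 66.5 and 46.7. Their part in the differences below was not tested. In bulk RNA, fewer cells in a given state and less RNA per cell cannot be told apart.

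**Figure D1:**
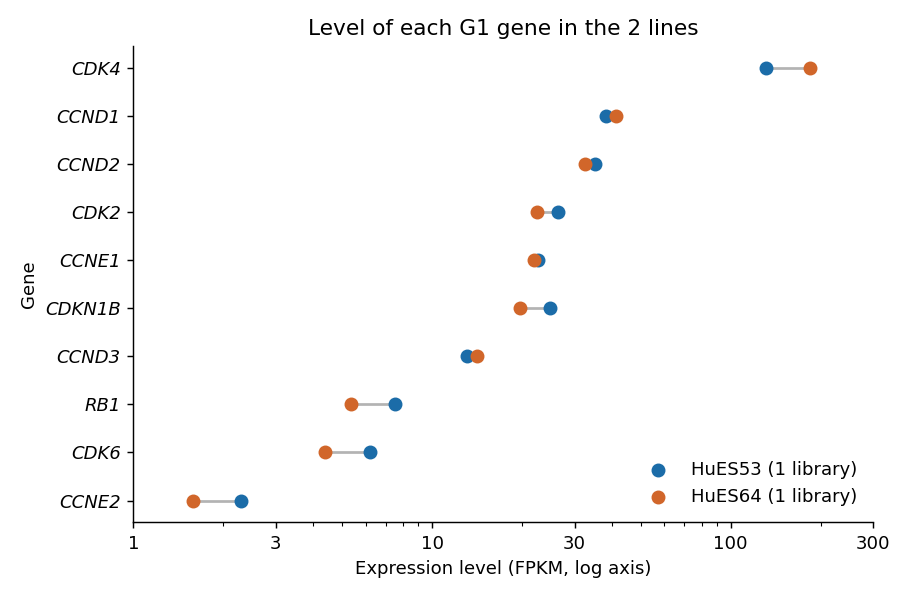
FPKM (log axis) of each of the 10 genes in HuES53 (blue) and HuES64 (orange), 1 library each, joined by a grey line and ordered by mean. The genes span from 1.58 FPKM for CCNE2 to 185 FPKM for CDK4, and the gap within a gene is small beside the gaps between most genes.

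The order of the levels was nearly the same in both lines, as the plot of levels shows. CDK4 was highest, followed by CCND1, CCND2 and CDK2, and the low end was CCND3, RB1, CDK6 and CCNE2 in both. CDKN1B and CCNE1 changed places in the middle: CDKN1B was the fifth in HuES53 and the sixth in HuES64. Neighbours in the middle of the order are close, and with 1 library a line their order has no error estimate. Among all genes tested, CDK4 lay at percentile 94.6 in HuES53 and 95.7 in HuES64, CCND1 at 80.7 and 81.5, and CCNE2 at 13.1 and 8.75.

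The D-type cyclins were expressed at matched levels. CCND1 measured 38.2 FPKM in HuES53 and 41.3 FPKM in HuES64, a 1.08-fold difference. CCND2 stood at 35.01 and 32.41 FPKM, 1.08-fold in the other direction. CCND3, the lowest of the family, stood at 13.1 and 14.1 FPKM. The directions of these small differences are not settled: with TPM scaling CCND1 (0.13) and CCND3 (0.13) became higher in HuES53. The loci in the table are chr11:69455873-69469242 for CCND1, chr12:4382902-4414522 for CCND2 and chr6:41902671-42016610 for CCND3. No other gene of the table overlaps these loci.

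Summed D-type cyclin expression was 86.3 FPKM in HuES53 and 87.8 in HuES64. CCND1 made up 44.3% of it in HuES53 and 47.0% in HuES64, CCND2 40.6% and 36.9%, and CCND3 15.1% and 16.1%. No single D-type cyclin transcript dominated in either line, and CCND1 and CCND2 together held most of the sum in both. These shares are formed within a library and do not change with its scaling.

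The E-type cyclins were unequal in level. CCNE1 (chr19:30302901-30315215), the partner of CDK2 at S phase entry, measured 22.7 FPKM in HuES53 and 21.9965 FPKM in HuES64. CCNE2 (chr8:95892452-95907482), its paralog, stood at 2.29 and 1.58 FPKM, a difference of 0.35 or 1.27-fold. CCNE1 thus made up 90.9% of E-type cyclin expression in HuES53 and 93.3% in HuES64. CCNE2 is the gene with the fewest fragments of the set, by a rough estimate 42.3 per kilobase in HuES53 and 24.0 in HuES64. Its locus also overlaps that of INTS8 by 270 bases, and INTS8 was the more abundant gene, at 27.3 and 20.1 FPKM, with a difference of 0.43. The part of INTS8 fragments in the CCNE2 values was not tested. The sum over D-type and E-type cyclins was 111.3 FPKM in HuES53 and 111.4 in HuES64.

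CDK4 was by far the most abundant G1 kinase transcript, and its difference was the largest of the 10 genes on the log2(FPKM + 1) scale with the deposited values. With a pseudocount of 0.1 FPKM, CCNE2 (0.50) and CDK6 (0.50) were as far apart as CDK4, and with TPM scaling CDK6 (0.67) and RB1 (0.66) were further apart than CDK4 (-0.25). CDK4 (chr12:58142003-58146164) measured 131 FPKM in HuES53 and 185 FPKM in HuES64, a difference of -0.49 or 1.41-fold. A total of 74.9% of all genes tested differed by no more than that. Its locus shares 24 bases with that of TSPAN31, and TSPAN31 itself stood at 15.0 and 20.3 FPKM (-0.42). CDK4 was the only one of the 10 that was higher in HuES64 under every scaling, filter and correction that kept it, with differences from -0.52 to -0.25.

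CDK6 (chr7:92234235-92465941), the paralog that shares the D-type cyclins with CDK4, went the other way at a much lower level. It measured 6.20 FPKM in HuES53 and 4.36 FPKM in HuES64, a difference of 0.42 or 1.34-fold. CDK4 held 95.5% of the summed CDK4 and CDK6 expression in HuES53 and 97.7% in HuES64. Expressed as a plain ratio, CDK4 exceeded CDK6 by 21.1-fold in HuES53 and by 42.3-fold in HuES64, so the ratio differed 2.00-fold between the libraries. This pair was singled out after its values were seen. The ratio does not depend on library scaling. On the log2(FPKM + 1) scale the gap was 1.89-fold, and a correction for transcript GC content and length, described below, made it smaller. It became 1.63-fold by the median transcript and 1.33-fold by the longest. The summed kinases stood at 1.59 FPKM per FPKM of D-type cyclin in HuES53 and at 2.15 in HuES64.

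CDK2 (chr12:56360556-56366568), which acts with E-type cyclins, measured 26.4 FPKM in HuES53 and 22.5 FPKM in HuES64, a difference of 0.22. Its level was close to that of its cyclins, at 1.06 FPKM of CDK2 per FPKM of E-type cyclin in HuES53 and 0.953 in HuES64. CDKN1B (chr12:12870302-12875305) stood at 24.7 and 19.7 FPKM, a difference of 0.31 or 1.24-fold. The transcript of this inhibitor was thus about as abundant as that of CDK2, at ratios of 0.936 and 0.876. CDK2 and CDKN1B were higher in HuES53 in all 11 ways of processing, the deposited values among them, CDK2 between 0.19 and 0.47 and CDKN1B between 0.14 and 0.56.

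RB1 (chr13:48877883-49056026) was among the lower genes of the set, at 7.49 FPKM in HuES53 and 5.35 FPKM in HuES64, a difference of 0.42 or 1.34-fold. By level it was 17.5-fold below CDK4 in HuES53 and 34.5-fold below it in HuES64. LPAR6, which lies inside the RB1 locus, stood at 6.28 and 5.82 FPKM, and the table does not show how fragments were divided between them. The other pocket protein genes, RBL1 and RBL2, stood at 1.99 and 8.21 FPKM in HuES53 and at 1.16 and 5.68 in HuES64. RB1 made up 42.3% of pocket protein expression in HuES53 and 43.9% in HuES64, RBL2 46.4% and 46.6%, and RBL1 11.2% and 9.53%. The sum was 17.7 FPKM in HuES53 and 12.2 in HuES64, with each of the 3 genes higher in HuES53. RBL1 differed by 0.47 and RBL2 by 0.46. After the correction for GC content and length described below, RB1, RBL1 and RBL2 stood at 0.13, 0.13 and 0.14 by the longest transcript. By the median transcript they stood at 0.20, 0.15 and 0.27. The RBL2 locus overlaps that of AKTIP, at 5.03 and 6.49 FPKM.

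**Figure D2:**
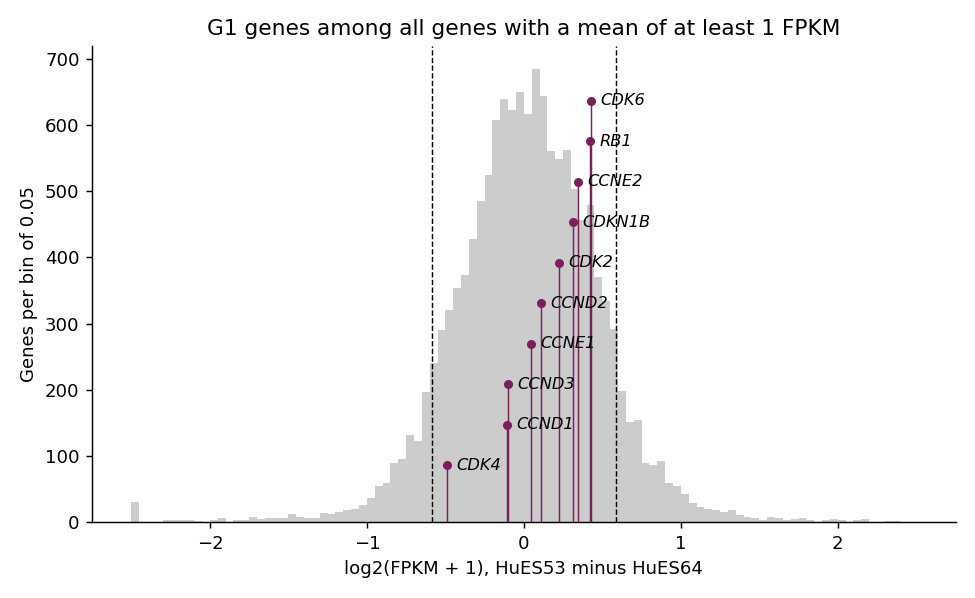
Histogram of log2(FPKM + 1) in HuES53 minus HuES64 for the 13790 genes averaging at least 1 FPKM, with values beyond 2.5 placed in the outermost bins. Purple pins mark the 10 genes at heights chosen for legibility, and dashed lines mark 1.5-fold; every pin lies between them, from -0.49 for CDK4 to 0.42 for CDK6.

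Of the 10 genes, 4 lie on chromosome 12, and these did not share a direction: CCND2, CDK2 and CDKN1B were higher in HuES53 and CDK4 in HuES64. The 713 genes tested on that chromosome had a median difference of 0.02. The 237 genes of chromosome 13, where RB1 lies, had a median of 0.21, and -0.02 after the correction described next, made with the median transcript of each gene.

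Differences over all genes varied with the GC content and length of the transcripts, and some of the 10 lay where this trend was strong. Over all genes with a reference transcript, the median difference was 0.32 in the tenth lowest in GC content (median 37.1%) and -0.31 in the tenth highest (64.2%), taking the longest transcript of each gene. The 3 genes of lowest GC content, CCNE2 (36.9%), RB1 (37.3%) and CDK6 (39.5%), were the 3 with the largest difference toward HuES53. CDK6 also has the longest transcript of the set, at 11612 bases, and the median difference was 0.32 in the tenth of all genes with the longest transcripts. When this trend was subtracted, using the longest transcript, CCNE2 stood at 0.06, CDK6 at 0.04 and RB1 at 0.13. CDK4 (53.6% GC) kept a difference of -0.37, CDKN1B stood at 0.32 and CDK2 at 0.31. CCND2 turned to -0.14, CCND1 stood at -0.21 and CCND3 at 0.11. With the median transcript in place of the longest, CDK6 stood at 0.38, RB1 at 0.20 and CCNE2 at 0.09, CDK4 at -0.33, CDK2 at 0.24 and CDKN1B at 0.14. CCND1 was then 0.17, CCND2 0.09 and CCND3 0.05. The size for CDK6 and CDKN1B and the sign for CCND1 and CCND2 thus depend on which transcript stands for the gene.

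**Figure D3:**
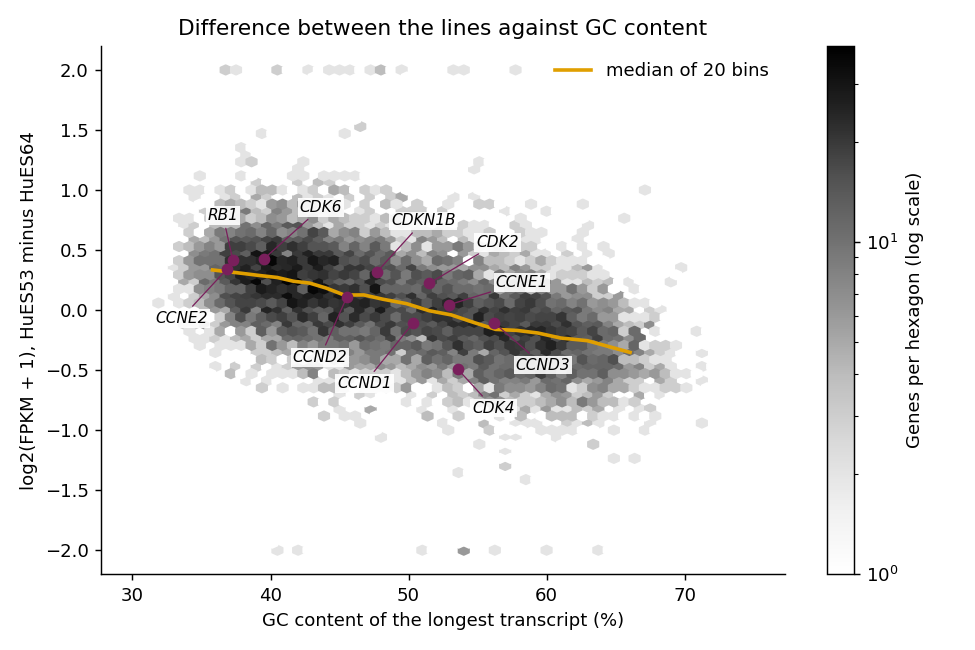
Difference between the lines against GC content of the longest transcript for the genes with a reference transcript (grey hexagons, darker for more genes on a log scale; values beyond 2 placed at the edge), with the median in 20 bins in yellow. CCNE2, RB1 and CDK6, at 36.9%, 37.3% and 39.5% GC, sit near the line, and CDK4 sits below it.

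**Figure D4:**
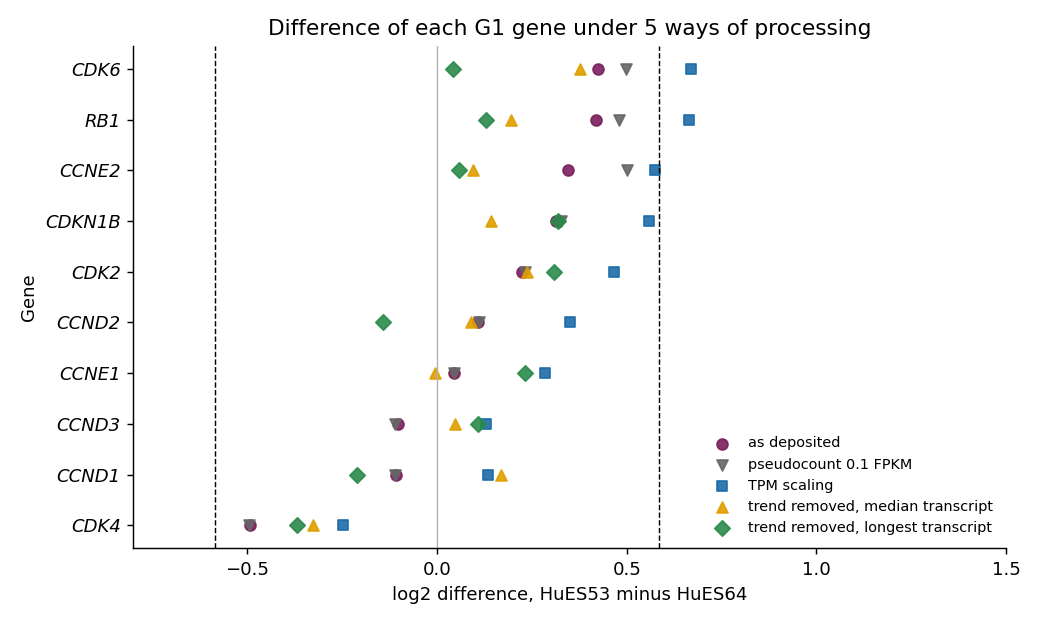
Difference of each of the 10 genes under 5 ways of processing, with dashed lines at 1.5-fold. With TPM scaling, in blue, CDK6 (0.67) and RB1 (0.66) pass 1.5-fold, and CDK4 is below 0 in all 5.

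The genes around these 10 were read from 7 lists of 52 genes in all, of which 50 averaged at least 1 FPKM. At least 1.5-fold higher in HuES53 were 3 of 50 and higher in HuES64 1 of 50, shares below the 9.22% and 7.84% of all genes. A total of 33 of 50 were higher in HuES53 by any size, against 52.5% of all genes. The median difference was 0.11, against 0.03. After correction for GC content and length, 26 of 50 were higher in HuES53 by the median transcript, with a median of 0.0085. By the longest transcript it was 28 of 50, with a median of 0.019. The share of all genes after correction was 50%.

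Among the other CDK inhibitors, the INK4 genes that act on CDK4 and CDK6 held the largest differences of the pathway. CDKN2B measured 5.63 FPKM in HuES53 and 2.04 FPKM in HuES64, 2.18-fold higher in HuES53, where 2.15% of all genes are at least 2-fold higher. CDKN2A, its neighbour on chromosome 9, stood at 2.99 and 5.76 FPKM, 1.69-fold higher in HuES64. CDKN2D stood at 3.69 and 2.36 FPKM, and CDKN2C at 0.342 and 0.418, below the filter. As a sum, the 4 INK4 genes were low beside their target kinases, at 12.7 FPKM in HuES53 and 10.6 FPKM in HuES64. CDK4 and CDK6 exceeded that sum by 10.8-fold in HuES53 and 17.9-fold in HuES64. For CDKN2A, RefSeq lists a start at the gene start and another 20467 bases into it. Not all CDKN2A transcripts encode the INK4 protein, and the level is not split by transcript. The INK4 part of the CDKN2A level, of the sum and of these ratios is therefore not known. CDKN2B overlaps the antisense gene CDKN2B-AS, listed at 0.892 and 0.107 FPKM, and whether the counting used strand is not given in the sources used here. After that correction, CDKN2A was -0.49 by the median and -0.30 by the longest transcript and thus under 1.5-fold, while CDKN2B stayed past it at 1.33 and 0.89 and CDKN2D passed it at 0.76 and 0.94.

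In the CIP/KIP family, to which CDKN1B belongs, CDKN1A led with 83.0 FPKM in HuES53 and 104 FPKM in HuES64. CDKN1C stood at 13.95 and 20.003 FPKM. Both were higher in HuES64, and CDKN1B was the only one of the 3 that was higher in HuES53. Its share of the family was 20.3% in HuES53 and 13.7% in HuES64. The differences were -0.32 for CDKN1A and -0.49 for CDKN1C, and with TPM scaling they were -0.08 and -0.26. After correction for GC content and length they were -0.10 and -0.20 by the median transcript and -0.09 and -0.11 by the longest.

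Most E2F and DP factor and pocket protein genes were slightly higher in HuES53. Of 11 tested, 10 were higher there, against 52.5% of all genes, with a median of 0.29. With a pseudocount of 1 FPKM, 0 of 11 reached 1.5-fold, against 17.1% of all genes. With 0.1 FPKM, RBL1 (0.73), E2F7 (0.65) and E2F8 (0.78) did so, and with TPM scaling RBL2 (0.71) did as well. E2F4, an E2F that mainly represses, was the highest at 49.3 and 45.1 FPKM, and its dimer partner TFDP1 stood at 40.2 and 35.9. E2F1, an activating member, was the exception, at 12.2 FPKM in HuES53 and 15.1 FPKM in HuES64. After correction by the longest transcript, 8 of 11 were higher in HuES53, against 50% of all genes. E2F1 then stood at 0.03, and the median was 0.13. By the median transcript it was 7 of 11, with a median of 0.15, and E2F1 stayed higher in HuES64 at -0.10. The sign for E2F1 after correction thus depends on which transcript stands for the gene.

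Factors above and below this switch were read from 3 lists of 19 genes, whose differences ran from -0.49 for RBX1 to 0.53 for LIN9. MYBL2, a transcription factor of proliferating cells, stood at 94.2 and 100.3 FPKM, and RBBP4, of the MuvB core, at 31.4 and 28.6. In the CDK-activating kinase, CDK7 stood at 55.9 and 56.9 FPKM, CCNH at 27.14 and 30.04, and MNAT1 at 38.4 and 35.8. WEE1, an inhibitory kinase of CDKs, was listed among the activation genes and stood at 58.3 and 45.4 FPKM. SKP1, the adaptor of the ubiquitin ligase that degrades p27 and cyclin E, stood at 162 and 164 FPKM, and RBX1, its RING subunit, at 123 and 173. With a pseudocount of 1 FPKM, 0 of the 19 genes differed by 1.5-fold, against 17.1% of all genes. With 0.1 FPKM LIN9 (0.62) and LIN54 (0.70), both of the MuvB core, passed it, and with TPM scaling LIN9 (0.78), LIN54 (0.76), WEE1 (0.60) and CUL1 (0.67), the scaffold of the ligase, did. RBX1 passed it at -0.64 after correction by the median transcript.

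The cyclins and kinase of later phases were all higher in HuES53, 5 of 5 against 52.5% of all genes, with a median of 0.51. CCNA1 was the one past 1.5-fold, at 8.08 FPKM in HuES53 and 4.45 FPKM in HuES64. By that size 9.22% of all genes were higher in HuES53. CDK1, the mitotic kinase, stood at 149 and 101 FPKM, CCNA2 at 85.7 and 59.9, CCNB1 at 204 and 160, and CCNB2 at 132 and 128. After correction the median was 0.22 by the median and 0.36 by the longest transcript, and CCNB2 was at -0.08 and -0.04. CCNA2 overlaps EXOSC9, which stood at 49.6 and 49.8 FPKM.

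Target genes of E2F at S phase entry were split evenly, 5 of 10 higher in each line, with a median of -0.05. PCNA, the replication clamp, stood at 231 and 226 FPKM, and TYMS, thymidylate synthase, at 89.6 and 102. POLA1, the catalytic subunit of DNA polymerase alpha, was the one past 1.5-fold, at 6.08 FPKM in HuES53 and 3.48 FPKM in HuES64. Among all genes 9.22% were higher in HuES53 by that size. POLA1 was under 1.5-fold after correction (0.30 by the median and 0.35 by the longest transcript). TPM scaling moved the median of this list to 0.20, below the 0.25 of all genes.

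**Figure D5:**
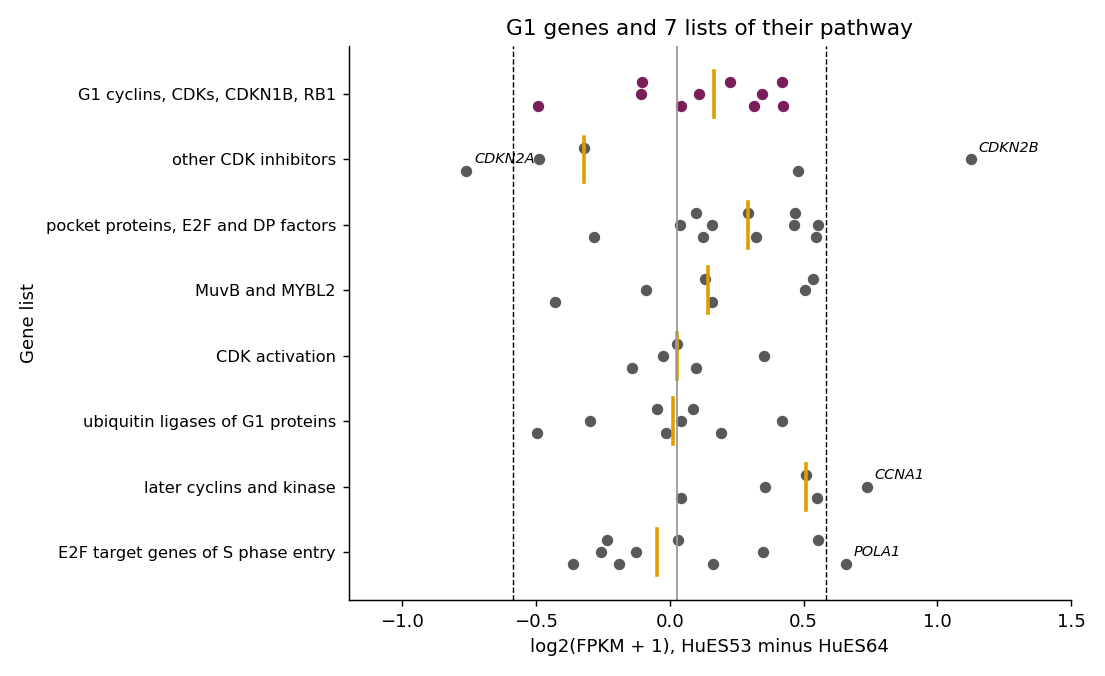
Difference between the lines for the 10 G1 genes (purple) and for the genes of 7 pathway lists averaging at least 1 FPKM (grey), 1 point per gene, spread vertically for legibility. Yellow bars are list medians, the grey line is the median of all genes (0.03), dashed lines are 1.5-fold, and the 4 genes past them are named.

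To show what RB1 acts through, upstream sequence was searched for the E2F site in 4 spellings, TTTCCCGC, TTTCGCGC, TTTGCCGC and TTTGGCGC, on both strands over the 250 bases before each transcription start listed by RefSeq (GRCh38.p14). Matches that overlap were each counted. The stretches below are the last 60 bases before the start (for PCNA, 60 bases ending 11 before it), 5′ to 3′ on the gene's strand, with matches in capitals. The first 4 are genes of the E2F and target lists that hold a match, and the last 3 are G1 genes of this report.
E2F1: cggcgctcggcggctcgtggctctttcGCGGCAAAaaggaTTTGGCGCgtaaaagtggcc
RBL1: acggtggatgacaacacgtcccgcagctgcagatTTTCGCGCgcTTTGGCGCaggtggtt
E2F2: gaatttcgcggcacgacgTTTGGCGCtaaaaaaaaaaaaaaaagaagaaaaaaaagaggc
PCNA: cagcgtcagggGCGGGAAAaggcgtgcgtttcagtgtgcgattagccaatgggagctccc
CCNE1: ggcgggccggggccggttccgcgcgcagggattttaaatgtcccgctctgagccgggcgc
CDK4: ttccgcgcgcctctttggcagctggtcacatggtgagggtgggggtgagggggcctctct
CDKN1B: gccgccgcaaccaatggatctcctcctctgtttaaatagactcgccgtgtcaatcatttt
They lie, in the same order, at chr20:33686386-33686445 (minus strand), chr20:37095998-37096057 (minus), chr1:23531234-23531293 (minus), chr20:5126633-5126692 (minus), chr19:29811931-29811990 (plus), chr12:57752311-57752370 (minus) and chr12:12717308-12717367 (plus), all in GRCh38.p14. E2F1 and RBL1 hold 2 matches each in these stretches. E2F2 was below the filter, at 0.980 FPKM in HuES53 and 0.664 FPKM in HuES64.

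A start was listed for 6 of the 10 G1 genes, CCND3, CCNE1, CDK4, CDK6, CDKN1B and RB1, and 0 of 6 had a match at any of 9 listed starts. The start listed for RB1 lies 172699 bases into the gene and is not its first. Those listed for CCND3 lie 1347, 108227 and 110830 bases into that gene, so its first start was not searched either. CCND1, CCND2, CCNE2 and CDK2 had no entry. No match says only that these letters are not in these windows. Of the E2F, DP and pocket protein genes, 5 of 10 with an entry held a match, and of the E2F target genes 4 of 9. E2F2, counted in the 5 of 10, averaged below 1 FPKM. Over all 35116 listed starts the share was 2.79%. Counted by gene with a match at any start, like the lists, it was 3.40% of 27305 symbols. Over the 9274 genes averaging at least 1 FPKM it was 5.56%. Those 516 genes with a match had a median difference of 0.04 between the lines, and the 8758 without had 0.05.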

How the data were processed

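The authors deposited 1 table of FPKM values with a gene symbol, a locus and a value for each line. TopHat2 2.0.4 and Cufflinks 2.0.2 are listed, with no role, in the submitters' processing notes. Genome build, annotation and strand setting: not given in the sources used here. Positions of all 10 members differ from RefSeq GRCh38.p14, so coordinates of the table and of the promoters belong to different builds and were not converted. Loci count from 0 (1264 of 1299 microRNA genes have the RefSeq length on that reading) and are printed counting from 1.

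The 136 rows of chromosome Y were left out and rows sharing a symbol were summed (21 symbols). Differences used a pseudocount of 1 FPKM and genes averaging at least 1 FPKM, in Python 3.11.15 with pandas 2.3.3. FPKM are not counts and each line has 1 library, so no test was run, and p-values are absent. Removal of the GC and length trend subtracted medians over 20 bins of each in 5 rounds, for 11916 genes (86.4%) with a GENCODE release 29 transcript. The other alternatives were a pseudocount of 0.1 or 0.5 FPKM, dropping the filter or raising it to 5 FPKM, upper quartile, median of ratios and TPM scaling, and leaving out overlapping loci. Depth was estimated from whole-fragment steps of olfactory receptor genes, assuming fragments of 200 bases: 1 FPKM over 1 kb stood for 18.5 fragments in HuES53 (16 of 19 values within 3% of a fragment of a whole number) and 15.2 in HuES64 (9 of 12). These steps were fitted on few genes and cover counting error only.

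Members and lists were chosen with earlier results of these data known. Genes were named by rule: all 10 members, and from each list the 2 with the highest mean and any at least 1.5-fold different. CDKN2C, CDKN2D, RBL1, RBL2, E2F1, E2F2, E2F7, E2F8, LIN9, LIN54, CUL1, CCNH, MNAT1, CDK1 and CCNA2 were named besides, to complete a family or complex or as exceptions, after their values were seen. With 2 libraries no gene can be called like another in pattern.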

Additional observations from a re-analysis of the deposited data

How the results depend on the processing

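No paired analysis was possible because each line has 1 library. Over 11 ways of processing, 5 members (CCNE2, CDK2, CDK6, CDKN1B and RB1) were higher in HuES53 and 1 (CDK4) in HuES64 wherever they were kept, and the sign of CCND1, CCND2, CCND3 and CCNE1 changed with the setting. The count of members past 1.5-fold was 0 except with TPM scaling, where it was 2 (CDK6 and RB1). TPM scaling moved the median of the members to 0.41, of the pathway lists to 0.36 and of all genes to 0.25. It gave 3175 genes at least 1.5-fold higher in HuES53 and 533 in HuES64, against 1271 and 1081, and 720 at least 2-fold higher in HuES53, against 297. Lowering the pseudocount to 0.1 FPKM gave 2-fold counts of 585 in HuES53 and 405 in HuES64, against 235 in HuES64 with 1 FPKM. With a mean of at least 5 FPKM, which leaves fewer genes, those for HuES53 were 700 at 1.5-fold and 161 at 2-fold. Removing the trend also leaves fewer genes, the 11916 with a reference transcript. With the trend removed the 1.5-fold counts were 737 and 597, the 2-fold count for HuES64 was 141, and the pathway median was 0.0085. By the longest transcript, an alternative chosen after seeing the data and covering the same genes, the 1.5-fold counts were 680 and 502. The 2-fold count for HuES64 was then 117. Without overlapping loci, which leaves fewer genes and drops CCNE2, CDK4 and RB1, the counts for HuES64 were 708 and 142. Of 96 values of members under the alternatives, 71 lay within 0.1 (log2) of the deposited value and 25 did not. Taking the highest row of a repeated symbol could not change the 22 shares, since each of their genes has 1 row.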

Other observations

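The remaining cyclin and CDK genes of the table, taken by symbol after the data were seen, are mostly known for roles outside G1. Of 29 such genes 26 had a mean of at least 1 FPKM, and 17 of these were higher in HuES53, against 52.5% of all genes. Their median difference was 0.19, or 0.02 after correction for GC content and length by the median transcript. At least 1.5-fold higher in HuES53 were 3 of the 26, against 9.22% of all genes. CCNT1, the cyclin partner of CDK9 in transcription elongation, measured 3.22 FPKM in HuES53 and 1.27 FPKM in HuES64. CDK12, a kinase of the RNA polymerase II tail, stood at 12.8 and 7.40 FPKM, and CDK14 at 8.17 and 4.49. By the longest transcript the corrected differences of these 3 were 0.51, 0.33 and 0.39, all under 1.5-fold, while by the median transcript CCNT1 (0.66) and CDK12 (0.63) were past it and CDK14 (0.43) was not.

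At least 1.5-fold higher in HuES64 were 2 of the 26, against 7.84% of all genes. CDK3, a kinase related to CDK2, measured 4.63 FPKM in HuES53 and 11.4 FPKM in HuES64, 2.21-fold. CDK20 stood at 0.876 and 2.72 FPKM. Both were still past 1.5-fold after correction, at -0.83 and -0.98 by the longest and -0.97 and -0.93 by the median transcript. CDK3 shares its locus with the read-through gene C17orf106-CDK3, listed at 1.46 and 2.22 FPKM, and the table does not show how fragments were divided between them. Elsewhere in the family CCNG1, a p53 target, was the highest, at 269.9 FPKM in HuES53 and 289 FPKM in HuES64.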
